A study of Homo sapiens with 4 samples.

Results

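The genes described here are 10 members of the BCL2 family, measured as messenger RNA in KYSE410, a cell line established from a human squamous cell carcinoma of the esophagus. They were taken from a fixed list of symbols, and a probe set counted as a member's when the platform annotation gave it exactly 1 gene symbol and that symbol was on the list. This found 34 probe sets of 9 genes among the 54675 probe sets of the table: 6 for MCL1, 4 each for BCL2L1 and BCL2, 2 for BAX, 1 for BAK1, 7 for BCL2L11, 2 for PMAIP1, 3 for BID and 5 for HRK. All 34 passed the filter on dim signal. BBC3 had 0, since its 1 probe set carried 3 symbols.

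The study held 2 arrays of untreated cells and 2 arrays of cells treated with YM155 at 20 nM for 6 h, all from the same line grown in the same medium with serum. YM155 is a drug that came from a search for compounds lowering survivin, an inhibitor of apoptosis. The treatment protocol names cisplatin at 10 mM for 12 h, whereas each sample's own treatment label names YM155, and the labels were followed. No label states whether replicates came from separate cultures, so p-values reflect only how far these arrays spread, and that spread may be technical. All values are log2 of the deposited intensity, and a difference is the mean of the YM155 arrays minus the mean of the untreated arrays, with its standard error (SE) from limma.

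BCL2 family proteins decide whether the outer mitochondrial membrane is opened during apoptosis. Guardians such as MCL1, BCL-XL and BCL2 hold the pore-forming proteins BAX and BAK in check, and BH3-only proteins such as BIM, NOXA, PUMA, BID and HRK engage the guardians or activate the pore formers. MCL1 messenger RNA and protein are both short-lived, which makes the gene a common readout of changes in transcription, and NOXA is known as a partner that binds MCL1 selectively.

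The arrays of the series were not equally close to each other. Of 32768 probe sets tested, the untreated arrays were at least 2-fold apart at 1690 and the YM155 arrays at 56, and among the members' probe sets these numbers were 3 and 0 of 34. Untreated replicate 1 was at least 2-fold from YM155 replicates 1 and 2 at 739 and 850, and untreated replicate 2 at 1811 and 2140, so untreated replicate 2 stood apart from the other 3 arrays. The members' differences are therefore also given against each untreated array where they turned on it. The ACTB control probe sets gave a 3' minus 5' difference of 2.72 and 2.18 log2 in untreated replicates 1 and 2 and of 2.10 and 2.95 in YM155 replicates 1 and 2, so that untreated replicate 1 and YM155 replicate 2 had the larger ones. The same difference for GAPDH was 0.042, 0.043, 0.032 and 0.211 in that order, larger in YM155 replicate 2 alone. Of 6 squamous epithelial markers, 4 had a probe set with 1 symbol, and KRT5, KRT14, SFN and CDH1 lay between 8.38 and 13.2 log2, with 3 of the 4 higher in the YM155 arrays without overlap (background 19.3% of genes by their brightest probe set). Markers of other cell types lay on both sides of the filter's limit of 3.32 log2 in mean over the arrays. COL1A2, COL3A1, LUM, PTPRC, CD14, LYZ and CDH5 lay below it. COL1A1, DCN, CD3E, PECAM1 and VWF lay above it, at up to 6.24 log2. In RNA from a whole culture, a change in the share of cells and a change in RNA per cell cannot be told apart.

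Among the members with several probe sets, only MCL1 and HRK differed without overlap in every probe set, MCL1 higher and HRK lower with YM155. BCL2 and PMAIP1 were positive and BAX negative in every probe set, but with overlap in some. BAK1 was lower without overlap in its 1 probe set. BCL2L1, BCL2L11 and BID had probe sets that went both ways, although the negative one of BID was nearly level at −0.034 log2. No member passed the adjusted threshold. At an adjusted p under 0.05, limma called 0 of 32768 probe sets higher (0%) and 0 lower (0%), whereas 3633 had an unadjusted p under 0.05. The 34 members' probe sets had adjusted p between 0.223 and 0.994. Their median difference was 0.0086 log2, beside −0.016 over all probe sets tested, with 18 positive and 16 negative. At an unadjusted p under 0.05 there were 2 higher (background 5.03%) and 3 lower (background 6.06%). Both treated arrays exceeded both untreated ones at 13 of the 34 (background 19.4%) and lay below them at 8 (background 23.9%). Probe sets of 1 gene are annotated to the same gene, so they were not taken as independent of each other.

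MCL1 encodes a guardian of the mitochondrial membrane that sequesters BAK and several BH3-only proteins. All 6 of its probe sets were higher in the YM155 arrays without overlap (background 19.4% of all probe sets tested). They fell into 2 of large and 4 of smaller difference. The probe set of largest difference, 200798_x_at, read 8.21 and 8.25 without the drug, against 9.81 and 10.05 with YM155. Each group was tight at this probe set, and the groups lay far apart. The difference was 1.70 ± 0.15 (SE), which is 3.25-fold (limma unadjusted p = 0.000143, adjusted p = 0.223). Probe set 214056_at read 5.22 and 5.28 without the drug, against 6.68 and 6.80 with YM155, again in tight groups. Its difference was 1.49 ± 0.14 (SE), or 2.82-fold (limma unadjusted p = 0.000163, adjusted p = 0.223). These were the only members' probe sets with a difference of at least 2-fold, a size reached upward by 1.04% of all probe sets tested. Their 95% intervals, not adjusted for the number of tests, ran from 1.30 to 2.10 and from 1.13 to 1.85 log2. The adjusted p of 0.223 was the smallest of the whole table, but it was a tie that probe sets of other genes shared. Among these, GLIPR1 and EFNB2 had smaller unadjusted p in limma (8.8e-05 and 0.000101).

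The 4 other MCL1 probe sets had differences between 0.48 and 0.76 log2, and their arrays spread in 2 ways. The brightest, 200797_s_at, read 10.29 and 11.18 without the drug, against 11.19 and 11.24 with YM155. Untreated replicate 2 was thus nearly level with the treated arrays, and replicate 1 alone was low. Probe set 214057_at read 5.99 and 6.78 without the drug, against 6.79 and 7.09 with YM155, with the same order. The difference was 0.48 ± 0.32 (SE) for 200797_s_at and 0.55 ± 0.30 for 214057_at (limma adjusted p = 0.63 and 0.575). Against untreated replicate 1 alone they stood 0.92 and 0.94 higher, and against replicate 2 alone 0.036 and 0.16. For these 2 probe sets the size of the difference therefore rested on which untreated array was the reference.

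In the remaining pair the untreated arrays lay together and the YM155 arrays apart. Probe set 200796_s_at read 4.81 and 4.69 without the drug, against 5.97 and 5.04 with YM155, and its difference was 0.76 ± 0.33 (SE; limma adjusted p = 0.498). Probe set 227175_at, the dimmest, read 3.75 and 3.63 without the drug, against 4.46 and 3.89 with YM155, at 0.48 ± 0.23 (SE; limma adjusted p = 0.523). YM155 replicate 1 was the higher treated array in both. It was also the array with the smallest ACTB 3' minus 5' difference. Of the untreated arrays, replicate 2 had the smaller ACTB difference (2.18 beside 2.72) but read slightly lower at both probe sets. The part of RNA quality in these 2 probe sets was not tested. Without YM155 replicate 1 the differences were 0.29 and 0.20, and without YM155 replicate 2 they were 1.22 and 0.77.

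**Figure D1:**
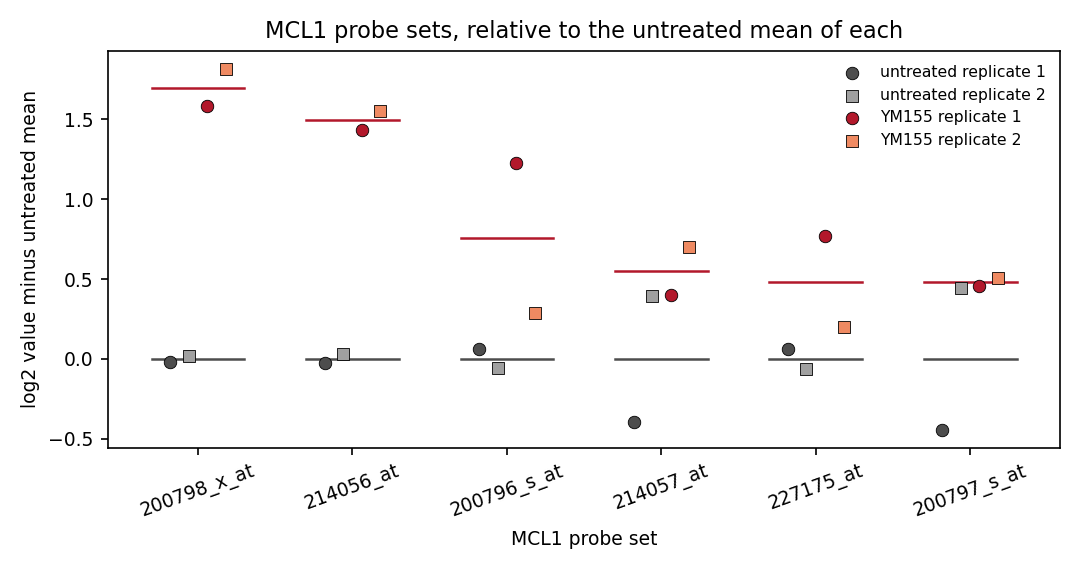
MCL1 probe sets (horizontal axis), each with the log2 value of 4 arrays minus the mean of its untreated arrays (vertical axis, log2). Points are arrays, grey lines the untreated mean and red lines the YM155 mean. Probe sets 200798_x_at and 214056_at show tight groups 1.70 and 1.49 apart, whereas at 214057_at and 200797_s_at untreated replicate 2 reaches the YM155 arrays.

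The MCL1 probe sets gave differences of unequal size, and the gaps between them are described here within each array. The gap between 200798_x_at and 200797_s_at, the probe sets of largest and smallest difference, was −2.08 and −2.93 log2 in the untreated arrays and −1.38 and −1.19 in the YM155 arrays. It was narrower in both treated arrays, by 1.22 log2 in mean. This pair was taken for its unequal differences, so the change in gap restates them and is no test. An exact two-sided permutation test over 2 against 2 arrays cannot go below p = 0.333. Of the 15 pairs of MCL1 probe sets, 10 had within-array gaps that did not overlap between the groups. The 5 others were pairs among the 4 probe sets of smaller difference, and among those 4 only 200796_s_at against 227175_at did not overlap. Each pair was ordered by these same differences, so the count restates that order and is no test. The same count was not made for other genes. Without untreated replicate 2 the gap between the extreme probe sets changed by 0.79 log2 instead of 1.22. Even the 2 large ones separated from each other (2.99 and 2.97 in untreated, 3.13 and 3.24 in YM155 arrays), by only 0.21 log2. The suffix _x_at marks probes that may bind other transcripts and _s_at those shared by several transcripts, while 214056_at and 214057_at carry no such mark and differed from each other by 0.94. Where on the MCL1 transcript each probe set lies was not analysed here.

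Genes whose pattern over the 4 arrays was nearest to that of MCL1 200798_x_at were found by the Euclidean distance of mean-centred log2 values. In order they were GLIPR1, a CAP superfamily protein, at a distance of 0.13, and EFNB2, an ephrin ligand, at 0.18. Next came SRSF6, a splicing factor, at 0.23, DNAJA1, an HSP70 cochaperone, at 0.24, and GCLC, the catalytic subunit of glutamate-cysteine ligase, at 0.27. The distance to MCL1's own probe set 214056_at was 0.22, and to its other 4 between 1.26 and 1.37. With 4 arrays, such a distance mostly reflects the size of the difference.

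BCL2L1, which encodes the guardian BCL-XL and, by alternative splicing, a pro-apoptotic short form, had 4 probe sets that did not share a direction. The brightest, 212312_at, read 8.32 and 8.65 without the drug, against 8.55 and 8.37 with YM155, so the groups overlapped. Its difference was −0.026 ± 0.18 (SE; limma adjusted p = 0.976), with a 95% interval from −0.49 to 0.44. Probe set 206665_s_at stood lower without overlap, at 5.10 and 5.48 without the drug, against 4.99 and 4.73 with YM155. That difference was −0.43 ± 0.20 (SE; limma adjusted p = 0.509). Probe set 231228_at stood higher without overlap at 0.17 ± 0.13, and 215037_s_at was at −0.24 ± 0.20 with a single low array, YM155 replicate 2 at 4.61 beside 5.06 to 5.10 in the others. Which BCL2L1 splice form each probe set reads was not analysed here.

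BCL2, the founding guardian of the family, gave positive differences in all 4 probe sets, but none passed the adjusted threshold (limma adjusted p from 0.693 to 0.994). Probe sets 207004_at and 207005_s_at were higher without overlap, by only 0.15 ± 0.14 and 0.19 ± 0.15 (SE). The difference of 0.48 ± 0.44 at 203685_at came from untreated replicate 2. That array read 3.55, whereas untreated replicate 1 and the YM155 arrays read 4.82, 4.82 and 4.52. Against untreated replicate 1 alone, it was −0.15. Probe set 203684_s_at lay close to the filter's limit, at 3.29 to 3.59, and its groups overlapped.

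The pore formers BAX and BAK1 were nearly level between the groups. BAX probe set 211833_s_at read 7.43 and 7.46 without the drug, against 7.33 and 7.28 with YM155, and the difference was −0.14 ± 0.13 (SE; limma adjusted p = 0.745). These groups did not overlap, but they lay close together. Its second probe set, 208478_s_at, was at −0.077 ± 0.15 with overlap, and the 95% intervals of the 2 ran from −0.48 to 0.21 and from −0.46 to 0.30. BAK1, whose product MCL1 restrains, read 7.11 and 7.30 without the drug, against 7.01 and 6.97 with YM155. Its difference of −0.21 ± 0.14 (SE; limma adjusted p = 0.637) had a 95% interval from −0.59 to 0.17, which leaves out a change of 2-fold in either direction.

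HRK, or harakiri, encodes a BH3-only protein best known from neurons deprived of growth factors. All 5 HRK probe sets were lower in the YM155 arrays without overlap (background 23.9% of all probe sets tested), by 0.36 to 0.74 log2. The brightest, 206864_s_at, read 7.18 and 7.59 without the drug, against 6.61 and 6.79 with YM155. Its difference was −0.68 ± 0.20 (SE; limma unadjusted p = 0.0192, adjusted p = 0.368), and untreated values were 1.61-fold the treated ones. It was −0.48 against untreated replicate 1 alone and −0.89 against replicate 2. Probe set 206865_at was the tightest, at 5.02 and 5.04 without the drug, against 4.52 and 4.62 with YM155. Here the untreated arrays nearly coincided and the difference was −0.46 ± 0.13 (SE; limma unadjusted p = 0.0208, adjusted p = 0.377).

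In 2 further HRK probe sets the untreated arrays lay further apart. Probe set 229552_at read 7.13 and 6.45 without the drug, against 6.22 and 5.88 with YM155, at −0.74 ± 0.28 (SE; limma unadjusted p = 0.0489, adjusted p = 0.448). Probe set 237187_at read 6.58 and 5.98 without the drug, against 5.86 and 5.61 with YM155, at −0.54 ± 0.25 (SE; limma adjusted p = 0.507). In this pair untreated replicate 1 was the higher untreated array, whereas at 206864_s_at and 206863_x_at it was replicate 2. The last, 206863_x_at, was dim (3.57 to 4.11 over the 4 arrays) and stood at −0.36 ± 0.16. Against either untreated array alone, every HRK probe set was negative, from −1.08 to −0.25, as arrays without overlap must be.

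**Figure D2:**
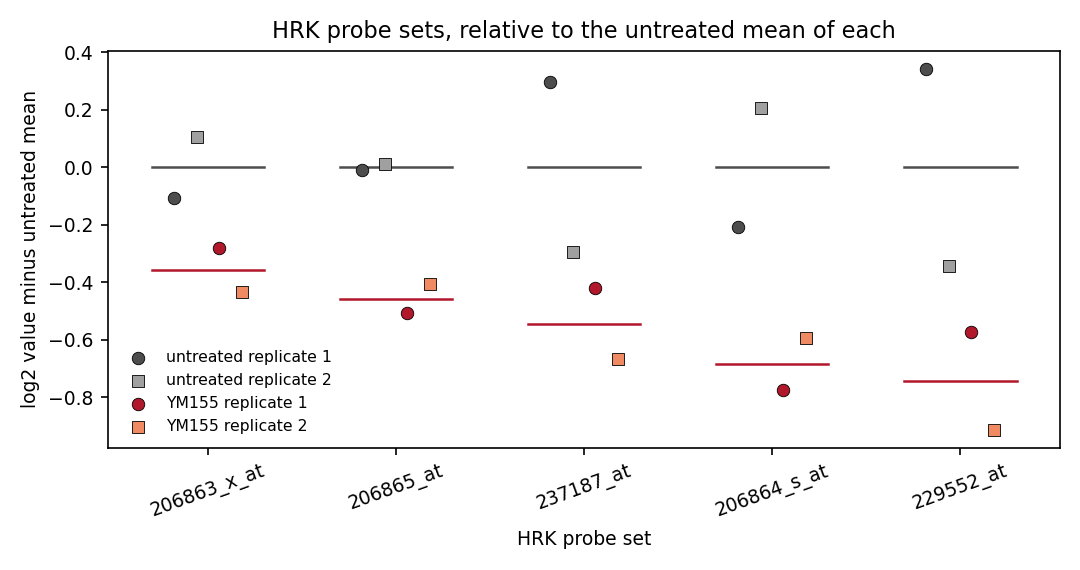
HRK probe sets (horizontal axis), each with the log2 value of 4 arrays minus the mean of its untreated arrays (vertical axis, log2). Points are arrays, grey lines the untreated mean and red lines the YM155 mean; the YM155 arrays lie below both untreated arrays in all 5 probe sets, and untreated replicate 1 is the higher untreated array at 229552_at and 237187_at.

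MCL1, with all 6 probe sets higher without overlap, had no window among the RefSeq promoters used here. The promoter of HRK is shown because all 5 of its probe sets stood lower without overlap (background 23.9%). The 250 bases before its start, from RefSeq (GRCh38.p14, chr12:116881442-116881691, minus strand), are given 5′ to 3′ in the gene's direction, with matches to the GC box in capitals.
HRK: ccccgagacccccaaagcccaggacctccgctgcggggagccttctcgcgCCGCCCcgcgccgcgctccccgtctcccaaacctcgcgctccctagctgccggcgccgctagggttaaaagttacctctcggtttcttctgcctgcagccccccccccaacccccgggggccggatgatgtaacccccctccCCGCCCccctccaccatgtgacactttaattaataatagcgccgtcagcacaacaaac
The GC box was searched as GGGCGG on both strands. It matched 2 times, with first bases 200 and 58 bases before the start, both on the strand opposite to the gene. Of 35116 windows of this length in the table, 42.6% hold this match. The TATA motif, searched as TATAAA on both strands, was not found in this window, and 10.7% of windows hold it. The CCAAT motif was not found either, on any strand, and 32.0% of windows hold that. The E-box searched as CACGTG had no match here, against 6.34% of windows. The window was 66.4% G and C, beside a median of 58.0% over all windows.

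BCL2L11 encodes BIM, a BH3-only protein that binds all guardians. Its 7 probe sets had differences from −0.45 to 0.35 log2, 3 positive and 4 negative, and the groups overlapped in 6. In all of them except 1555372_at the untreated arrays differed more than the groups did. Probe set 222343_at read 5.04 and 6.47 without the drug, against 5.63 and 4.98 with YM155. Probe sets 1553088_a_at, 1553096_s_at and 208536_s_at shared its peak in untreated replicate 2, at 6.20, 6.96 and 4.23 beside 5.23, 6.15 and 3.16 in replicate 1. All 4 were negative as a group difference, yet positive against untreated replicate 1 alone (0.18 to 0.27). The brightest, 225606_at, went the other way, with 7.64 and 7.10 without the drug, against 7.74 and 7.63 with YM155, and a difference of 0.32 ± 0.22 (SE; limma adjusted p = 0.642). That was 0.051 against untreated replicate 1 alone and 0.59 against replicate 2. Probe set 1555372_at was the only one without overlap, at 0.35 ± 0.17 (SE; limma adjusted p = 0.528), with 0.18 and 0.51 against untreated replicates 1 and 2 alone.

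The ACTB 5' control probe set read 10.06 and 10.80 without the drug, against 10.96 and 10.10 with YM155. Like it, BCL2L11 probe sets 222343_at, 1553088_a_at, 1553096_s_at, 208536_s_at and 1558143_a_at were lower in untreated replicate 1 and YM155 replicate 2 than in the other 2 arrays. The part of RNA quality in these values was not tested.

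**Figure D3:**
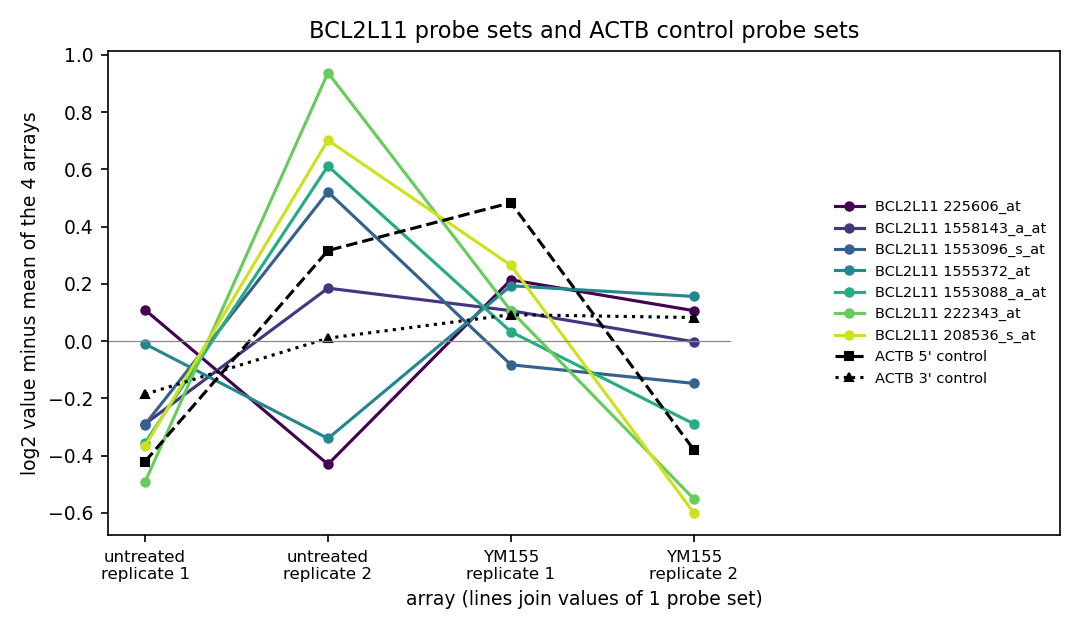
Log2 values of 7 BCL2L11 probe sets and 2 ACTB control probe sets, each minus its mean over the 4 arrays (vertical axis), by array (horizontal axis); lines join the values of 1 probe set. Probe sets 222343_at, 1553088_a_at, 1553096_s_at, 208536_s_at and 1558143_a_at have their peak in untreated replicate 2, while 225606_at and 1555372_at have their lowest value there.

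PMAIP1, the gene of the MCL1 partner NOXA, was level in its brighter probe set and slightly higher in the other. Probe set 204285_s_at read 9.46 and 9.49 without the drug, against 9.54 and 9.42 with YM155. The difference was 0.0071 ± 0.14 (SE; limma adjusted p = 0.994), with a 95% interval from −0.35 to 0.36. Probe set 204286_s_at read 7.18 and 7.07 without the drug, against 7.36 and 7.47 with YM155, at 0.29 ± 0.14 (SE; limma adjusted p = 0.528) without overlap.

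BID, which is cut by caspase 8 and links death receptors to mitochondria, differed between its probe sets. The brightest, 211725_s_at, read 8.90 and 8.97 without the drug, against 9.02 and 8.79 with YM155, with overlap and a difference of −0.034 ± 0.15 (SE; limma adjusted p = 0.959). Probe set 227143_s_at read 8.25 and 7.31 without the drug, against 8.53 and 8.58 with YM155, at 0.78 ± 0.33 (SE; limma adjusted p = 0.493). Probe set 204493_at read 8.08 and 7.60 without the drug, against 8.14 and 8.19 with YM155, at 0.32 ± 0.20 (SE; limma adjusted p = 0.617). Both of these were higher without overlap (background 19.4%). At both, untreated replicate 2 was the low array, and against replicate 1 alone they stood only 0.30 and 0.082 higher.

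BBC3, the gene of the BH3-only protein PUMA, could not be given a value of its own. The 1 probe set that lists it, 211692_s_at, also lists the microRNA genes MIR3190 and MIR3191 and names no gene here. It read 6.53 and 6.73 without the drug, against 6.00 and 6.00 with YM155, at −0.63 ± 0.14 (SE; limma unadjusted p = 0.00841, adjusted p = 0.325).

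**Figure D4:**
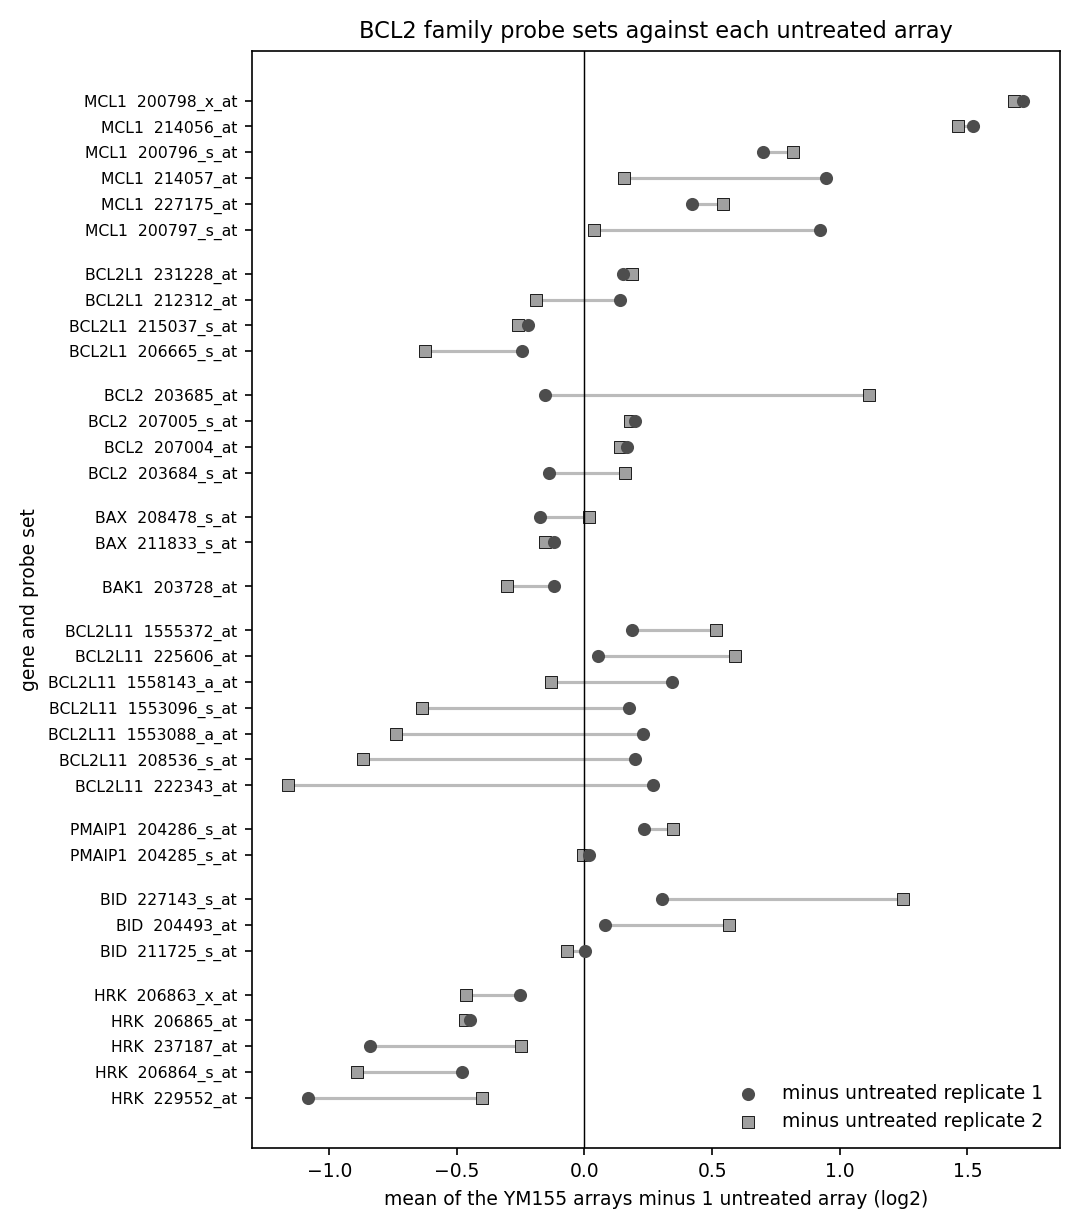
Mean of the YM155 arrays minus each untreated array (horizontal axis, log2) for the 34 probe sets, grouped by gene (vertical axis). Circles are against untreated replicate 1 and squares against replicate 2; a long line means that the untreated arrays differed. MCL1 lies right of 0 and HRK left of 0 against both, and 5 of the 7 BCL2L11 probe sets lie on opposite sides of 0.

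Other genes of the pathway were read from the brightest probe set of each, from fixed lists. Of 13 further BCL2 family genes tested, 5 had positive and 8 negative differences, with a median of −0.20 log2 beside −0.015 over 14043 genes. Without overlap, 2 were higher (background 19.3%) and 4 lower (background 25.6%). BIK, a BH3-only gene, read 8.59 and 8.83 without the drug, against 8.23 and 8.27 with YM155, at −0.46 ± 0.15 (SE; limma unadjusted p = 0.0305, adjusted p = 0.407). BIK was the only one of them with an unadjusted p under 0.05 (background 4.92% higher and 6.9% lower). BNIP3, a mitophagy receptor induced by hypoxia, read 9.82 in untreated replicate 2 and 7.70 to 7.86 in the other 3 arrays. Its difference of −0.97 ± 0.70 (SE; limma adjusted p = 0.661) thus came from 1 array. The other BNIP3 probe set, 201848_s_at, gave −1.19 ± 0.69 (SE) without overlap (background 23.9% lower). It read 7.04 and 9.12 without the drug, against 6.94 and 6.84 with YM155, so untreated replicate 2 again stood apart.

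Genes that set the stability of MCL1 protein had 6 positive and 5 negative differences among 11, with a median of 0.032, and 0 had an unadjusted p under 0.05 in limma (background 4.92% higher and 6.9% lower). The largest was CDC20, an activator of the anaphase-promoting complex, at −0.40 ± 0.37 (SE; limma adjusted p = 0.731), which stood at 0.12 against untreated replicate 1 alone. MARCHF5, a mitochondrial ubiquitin ligase, gave −0.36 ± 0.16 from its brightest probe set but 0.45 ± 0.24 from its other. Downstream of the membrane, 4 of 11 apoptosome and caspase genes were positive and 7 negative, with a median of −0.13. HTRA2, a mitochondrial protease released in apoptosis, read 7.89 and 7.88 without the drug, against 7.22 and 7.11 with YM155. Its difference was −0.72 ± 0.13 (SE; limma unadjusted p = 0.00364, adjusted p = 0.284), and its other probe set gave −0.35. CASP9, the initiator caspase of the apoptosome, read 7.58 and 7.45 without the drug, against 7.04 and 6.94 with YM155, at −0.52 ± 0.14 (SE; limma unadjusted p = 0.0152, adjusted p = 0.349), with −0.32 in its other probe set.

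Transcriptional regulators of family members went both ways, with 5 positive and 7 negative of 12. At an unadjusted p under 0.05 in limma 3 stood higher (background 4.92%) and 3 lower (background 6.9%). JUN, an AP-1 subunit, read 9.83 and 10.21 without the drug, against 11.18 and 11.06 with YM155, at 1.10 ± 0.18 (SE; limma adjusted p = 0.255), and its 3 other probe sets gave 1.14 to 1.49. MYC read 8.30 and 9.13 without the drug, against 10.35 and 9.84 with YM155, at 1.38 ± 0.34 (SE; limma adjusted p = 0.335). FOXO1, a forkhead factor that induces BIM in several cell types, read 6.56 and 6.94 without the drug, against 5.57 and 5.79 with YM155. Its difference was −1.07 ± 0.19 (SE; limma adjusted p = 0.276), with −1.62 in its other probe set. DDIT3, which encodes the stress-induced factor CHOP, stood at −0.82 ± 0.15 (SE; limma adjusted p = 0.28). These 4 were named for an unadjusted p under 0.05 and arrays without overlap, so their separation is no test. Of the 12, 4 were higher without overlap (background 19.3%) and 4 lower (background 25.6%).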

How the data were processed

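Total RNA of 2 untreated and 2 YM155-treated KYSE410 samples was labelled as biotin cRNA from 200 ng and hybridised to Affymetrix 3' expression arrays, per the labels' protocols. For every array the authors deposited an intensity for each probe set. The submitters' processing notes name RMA (robust multi-array averaging), whose version is not given in the sources used here. Intensities ran from 2.42 to 15214, a linear scale, so log2 was taken. RMA sets arrays to a common distribution (medians 16.0 to 16.3), so a shift of all genes is not measured. The number of arrays limits the precision.

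Left out were 62 control probe sets and those whose mean log2 value was under 3.32, the 40th percentile, so that 32768 stayed in. Of all others than controls, 41091 had 1 symbol, 1801 several and 11721 none. Each probe set was tested with limma 3.58.1 under R 4.3.3 (two-sided, with group alone in the model; 2 residual and 2.69 prior degrees of freedom), with Benjamini-Hochberg adjustment over all 32768 and a threshold of 0.05. The fit was tested on simulated data. Genes named: every member; from each further list up to 4 genes by size with an unadjusted p under 0.05 and no overlap, and, where fewer than 2 met this, the 2 largest; and the 5 nearest to the leading MCL1 probe set. Members and lists were chosen with earlier results of these data known. Groups follow the titles; codes B1 and B2 there were not used. Of the members, 9 matched the RefSeq promoter table by symbol and MCL1 did not. Alternatives were other filters, 1 probe set per gene, suffix-free probe sets, 2 other scalings, trend and robust eBayes, a replicate block, array weights, and each array left out.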

Additional observations from a re-analysis of the deposited data

How the results depend on the processing

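Under each of the 13 alternatives limma again called 0 probe sets higher and 0 lower, with 870 to 8884 at an unadjusted p under 0.05. With all arrays kept, the table's smallest adjusted p in limma ran from 0.163 (brightest probe set per gene) to 0.568 (replicate block). MCL1 200798_x_at had or shared that minimum in each of these fits that tested it. The adjustment gives many probe sets the same value, so sharing the minimum does not set MCL1 apart. With the replicate block, HRK 206864_s_at and 229552_at also had 0.568. The brightest MCL1 probe set ran from 0.036 to 0.92 with an array left out, and the MCL1 gap from 0.79 to 1.64. Their signs could not change there, since neither overlapped between the groups. With the replicate block, the table's smallest adjusted p was 0.568 and 2767 probe sets had an unadjusted p under 0.05, beside 3633 without it. The deviations of arrays of the same number had a correlation of −0.033. With 2 arrays per group this is a single comparison, so it cannot decide whether the number pairs them. The block changed no call.

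Of the 34 members' probe sets, 11 changed sign with an array left out. They ran from −0.19 to 0.14 for BCL2L1 212312_at, −0.15 to 1.11 for BCL2 203685_at, −0.14 to 0.16 for BCL2 203684_s_at, −0.17 to 0.019 for BAX 208478_s_at, −0.055 to 0.069 for PMAIP1 204285_s_at and −0.15 to 0.078 for BID 211725_s_at. In BCL2L11 they ran from −0.13 to 0.34 (1558143_a_at), −0.64 to 0.18 (1553096_s_at), −0.74 to 0.23 (1553088_a_at), −1.16 to 0.27 (222343_at) and −0.87 to 0.20 (208536_s_at). A second quantile normalization turned PMAIP1 204285_s_at to −0.011. No MCL1 or HRK probe set changed sign in any alternative in which it was tested. Their arrays did not overlap between the groups, so leaving out 1 array could not change the sign, and this is no test. A lone array left in a group is assumed to vary like the other group.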
